A study of Mus musculus with 20 samples.

Results

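The antioxidant and redox defence genes were 45 genes listed by function, with earlier results of these data known, among 55573 genes of the deposited table. They code for enzymes that remove superoxide and peroxides, for the glutathione and thioredoxin systems, and for targets of the transcription factor NRF2. All 45 symbols were matched to a gene identifier of the table and all 45 had a nonzero value in at least 1 library. They were read in 20 RNA-seq libraries of mouse embryoid body (EB) cultures, aggregates in which pluripotent cells differentiate. The cultures came from 4 iPSC lines, induced pluripotent cells made from embryonic fibroblasts with viral Oct4, Sox2, Klf4 and c-Myc. WT#1-4 and WT#20D-17 were wild type by their labels, and Nox4-/- #5-8 and Nox4-/- #5-23 came from mice without Nox4, an NADPH oxidase that releases hydrogen peroxide. Each line was sampled on days 0, 3, 5, 7 and 14, with 1 library per line and day. All lines were grown before aggregation on fibroblast feeder cells with LIF, in medium holding β-mercaptoethanol, a thiol. For aggregation the study's methods name ES medium without LIF and state no removal of the thiol. The labels' protocol text ends at an earlier last day than the titles, and the day of the titles is used. The study's text does not name WT#20D-17.

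Superoxide is turned into hydrogen peroxide by superoxide dismutases, and peroxide is then reduced by catalase, glutathione peroxidases and peroxiredoxins. The last groups draw their electrons from glutathione or thioredoxin, which are recharged with NADPH by glutathione reductase and thioredoxin reductases. NRF2, the product of Nfe2l2, is held low by KEAP1 and raises many of these genes through a DNA motif called the antioxidant response element when KEAP1 cysteines are oxidized. Metallothioneins bind zinc and copper, scavenge radicals, and are switched on through metal response elements by the factor MTF1. Pluripotent cells are known for low peroxide levels and strong thiol systems. The comparison of wild type with Nox4-/- lines asks whether loss of a peroxide source went with other levels of the genes that remove peroxide.

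Total counts were between 20294968 and 27708023 per library, and values are given as CPM, counts scaled to a common library size with TMM factors. A count of 3, taken as the floor of detection, was 0.109 to 0.157 CPM. Of the 45 genes, 34 had at least 100 counts in every library. Nox4 itself had 3 to 22 counts in WT#1-4, 56 to 203 in WT#20D-17 and 0 to 2 in the Nox4-/- lines. Markers set the lines apart before any redox gene was compared. Pou5f1 was 5760.1, 1136, 3081 and 4394 CPM on day 0 in WT#1-4, WT#20D-17, Nox4-/- #5-8 and Nox4-/- #5-23. Nanog was 383 CPM on day 0 in WT#20D-17 and at most 1.03 CPM in any library of the other 3 lines. In those 3 lines Zfp42 was listed at 0 throughout. Esrrb, Dppa5a, Utf1 and Tdgf1 were also highest on day 0 of WT#20D-17, at 123, 900, 311 and 669 CPM. In any library of the other 3 lines they were at most 0.21, 2.22, 8.35 and 41.5 CPM. Sox2 did not follow them, at 33.6, 195, 154 and 202 CPM on day 0 in the 4 lines, in the order given for Pou5f1. Oct4, the product of Pou5f1, and Sox2 were also given by virus, and gene counts cannot tell those transcripts from the cells' own. The summed CPM of 8 parietal endoderm markers went from 1574 to 73087 between days 0 and 14 in WT#20D-17, and the highest sum in the other lines was 2647. Sums of 8 fibroblast markers were 52.1 to 122.5 in WT#1-4, 33.9 to 3290.2 in WT#20D-17, 11.7 to 29.7 in Nox4-/- #5-8 and 7.33 to 18.3 in Nox4-/- #5-23, and all 8 passed 3 counts on some day in each line but Nox4-/- #5-23, where 1 did not. The part of these cell types in the results below was not tested, and fewer cells of a type cannot be told apart from less RNA per cell in bulk samples.

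Promoter sequence was examined for the motifs through which NRF2 and MTF1 act. RefSeq promoters of GRCm38.p6, each running from 250 bases before to 50 bases after a start site, were found for 39 of the 45 genes. The letters TGACNNNGC, the core of the antioxidant response element, were on either strand in 9 of the 53 promoters of these genes, 1 per gene, which is 17%, and 12.4% of all 32851 promoters held them. They overlapped with the metal motif described next in 1 gene, Gclm. The 9 matches are shown because they are the genes of the set that carry the motif of its main regulator this close to a start site. Capitals mark the motif, and each run reads 5′ to 3′ on the strand named.

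Nfe2l2, chr2:75704885-75704913, minus strand: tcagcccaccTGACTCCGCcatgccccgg
Prdx1, chr4:116685456-116685484, minus strand: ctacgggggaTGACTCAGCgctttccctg
Srxn1, chr2:152105542-152105570, minus strand: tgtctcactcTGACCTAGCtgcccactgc
Gclm, chr3:122245413-122245441, minus strand: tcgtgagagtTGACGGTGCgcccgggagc
Txnrd1, chr10:82859104-82859132, minus strand: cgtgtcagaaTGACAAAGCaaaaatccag
Sesn2, chr4:132510474-132510502, minus strand: cgcagcgggcTGACAGAGCcgggcgagcg
Sod1, chr16:90220696-90220724, minus strand: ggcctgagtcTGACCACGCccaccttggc
G6pdx, chrX:74428919-74428947, plus strand: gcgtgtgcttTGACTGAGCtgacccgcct
Mt2, chr8:94172529-94172557, plus strand: aaagggggtgTGACTCAGCgcggggggtg

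A match is a description of letters and not a bound site. TGCNCNC, a loose pattern for the core of the metal response element with any base at each N, was in 51% of all promoters. It was in 29 of the 53 promoters of the set, which is 54.7%, so that its presence alone says little. Within the promoter windows its number differed between the neighbouring metallothionein genes, and bases outside the windows were not searched. Mt1 held 3 matches, all on the strand of the gene, and Mt2 held 6, of which 3 were on the opposite strand. Both windows are shown with the matches in capitals, because Mt1 and Mt2 lie side by side on the plus strand of chromosome 8 and moved together across libraries.

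Mt1, chr8:94178839-94179138: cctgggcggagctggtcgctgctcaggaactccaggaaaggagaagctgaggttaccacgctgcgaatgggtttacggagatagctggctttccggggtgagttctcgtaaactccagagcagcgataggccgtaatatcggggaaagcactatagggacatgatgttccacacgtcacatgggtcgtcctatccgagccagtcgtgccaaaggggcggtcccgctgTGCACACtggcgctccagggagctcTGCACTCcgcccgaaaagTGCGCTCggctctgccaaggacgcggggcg
Mt2, chr8:94172368-94172667: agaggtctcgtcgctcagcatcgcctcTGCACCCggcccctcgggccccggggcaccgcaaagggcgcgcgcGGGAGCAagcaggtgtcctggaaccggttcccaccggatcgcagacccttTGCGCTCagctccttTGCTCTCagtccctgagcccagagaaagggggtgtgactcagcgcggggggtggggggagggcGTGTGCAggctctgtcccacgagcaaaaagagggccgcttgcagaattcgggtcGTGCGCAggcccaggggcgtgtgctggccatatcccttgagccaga

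**Figure D1:**
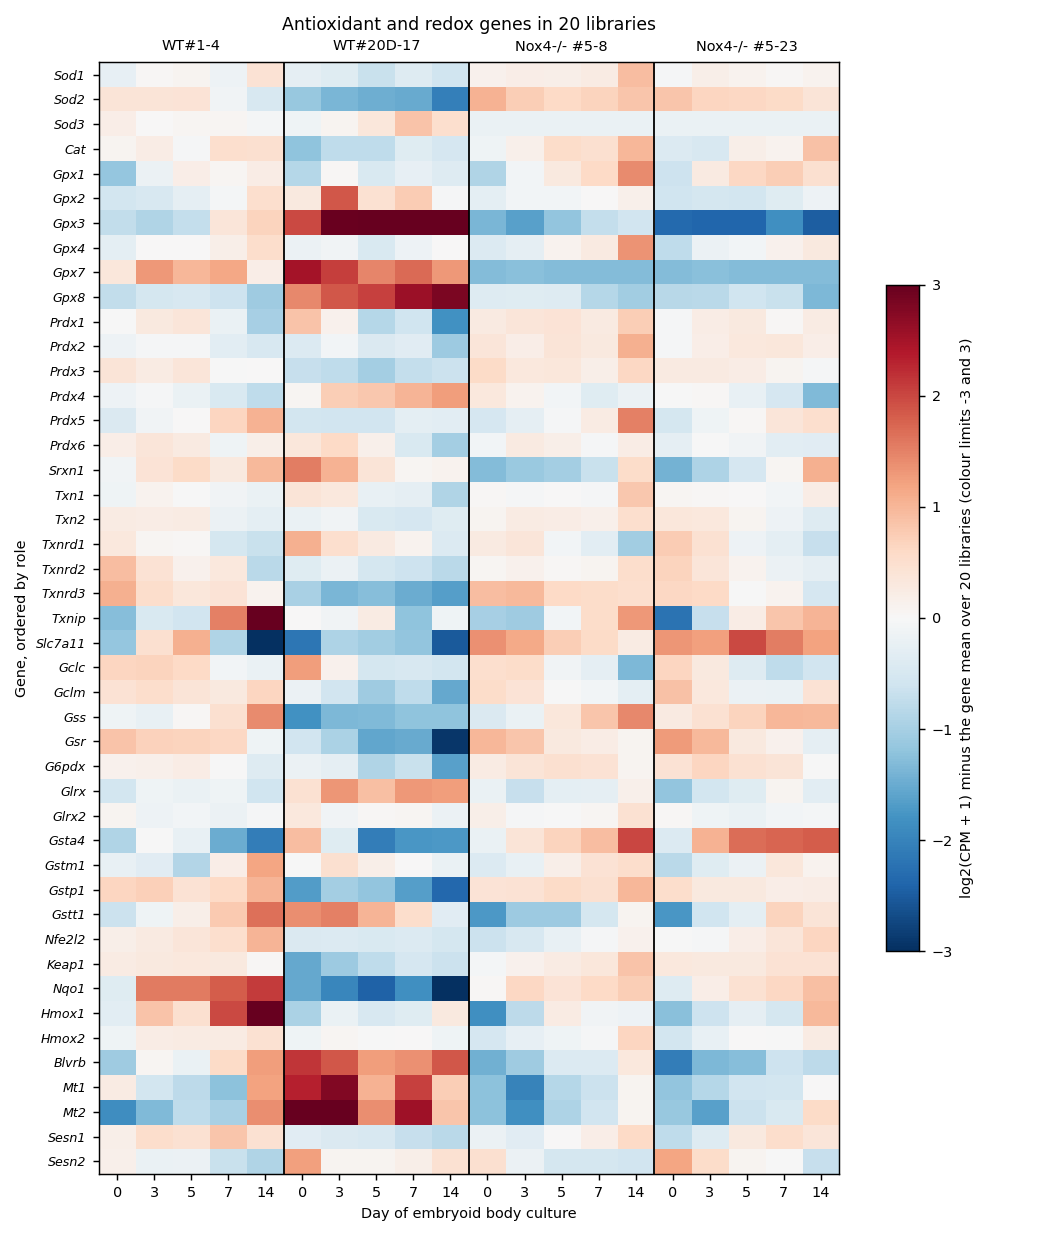
Colour gives log2(CPM + 1) of each of the 45 genes minus the mean of that gene over 20 libraries, with 1 column per library, grouped by line and ordered by day. Gpx3, Gpx8, Blvrb, Mt1 and Mt2 reach their highest values in WT#20D-17, and Hmox1, Txnip and Nqo1 reach their highest values in WT#1-4.

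Levels were compared between genes as CPM per kilobase of exon, averaged over the 20 libraries. Txn1, the cytosolic thioredoxin, led with 224.9, ahead of its inhibitor Txnip with 170.8, the lipid peroxide reductase Gpx4 with 169.1 and the peroxiredoxin Prdx1 with 166.2. Txnip spanned 24.8 to 993.8 among libraries and Txn1 117.5 to 382.6, so the order of these leading genes was not the same in every library. The lowest were Gpx2 with 0.208 and Sod3 with 0.0445. Among the other enzymes that remove peroxide, Prdx2 stood at 135.3, Gpx1 at 127.1, Cat at 67.0 and Prdx3, the mitochondrial peroxiredoxin, at 51.9.

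Against WT#1-4, with days pooled, 6 of the 45 genes differed in the Nox4-/- lines at an FDR under 0.01 by edgeR's exact test. Lower were 5 genes, where 3.97% of all 33860 genes tested were lower, and higher was 1, Gsta4, where 1.65% were higher. The share over both directions was 13.3% of the genes of the set and 5.62% of all genes, which is a description, since the set was listed with earlier results known. Of the 33860 genes, 16517 had a mean of at least 10 counts, as did 44 of the 45, so these shares set genes of unlike counts side by side. The same holds for the other shares of all 33860 genes. The median log2 fold change was -0.06 over the set and 0 over all genes. The 5 lower genes were Sod3, Gpx3, Gpx7, Nqo1 and Hmox1. Sets of libraries did not overlap for 3 of the 45 genes, Sod3, Gpx7 and Prdx2, against 3.35% of all genes. Without day 7 the calls were 2, Sod3 and Gpx7 (3.29% of all genes), and with day as a replicate block in a quasi-likelihood test they were 11 (8.04% of all genes). A log2 fold change is given below with the SE of a quasi-likelihood fit, since the exact test gives none. Successive days of 1 culture stand in for replicates in this test without being independent, and with 1 wild-type line the line and the genotype cannot be told apart.

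Against WT#20D-17 the same test called 25 of the 45 genes. Higher in the Nox4-/- lines were 15 (9.83% of all genes tested) and lower were 10 (16% of all genes), and over both directions 25.8% of all genes were called. Libraries of the Nox4-/- lines lay outside those of WT#20D-17 for 20 genes, 8 of them lower, where 15.3% of all genes did so. The wild-type lines also differed from each other in 20 of the 45 genes, 7 higher in WT#20D-17 (9.96% of all genes) and 13 lower (7.78%), against 17.7% of all genes in either direction. Both Nox4-/- comparisons share the Nox4-/- libraries, so their values are given side by side below. Between Nox4-/- #5-8 and #5-23, 1 of the 45 genes was called, Gpx3, where 2.19% of all genes were called.

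With the line as the unit, 2 lines against 2, none of the 45 genes and 0% of 20229 genes passed in edgeR's quasi-likelihood test. At an unadjusted p under 0.05 there were 8 genes of the set and 1628 of all genes. DESeq2 on the same sums called 3 of the set, Sod3, Gpx7 and Gsta4, and 3.58% of all genes, and edgeR's exact test called 2, Sod3 and Gpx7, and 0.613% of all genes.

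**Figure D2:**
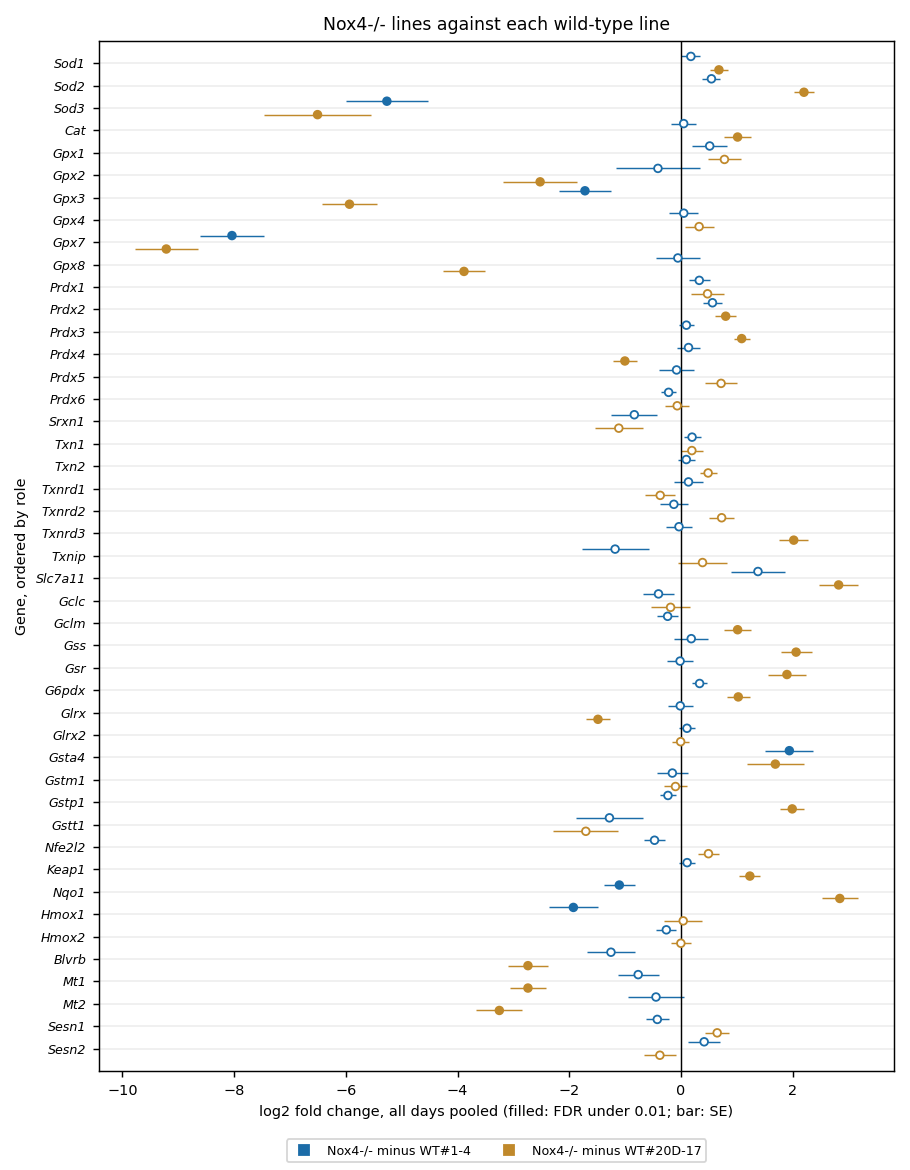
Each point is the log2 fold change of 1 gene with all days pooled, Nox4-/- minus WT#1-4 in blue and Nox4-/- minus WT#20D-17 in ochre. Filled points passed an FDR of 0.01 in edgeR's exact test and bars are the SE from the quasi-likelihood fit. Gpx7 lies far to the left against both wild-type lines, and Nqo1 lies on opposite sides of 0, at -1.11 and 2.84.

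Among superoxide dismutases, Sod2, the mitochondrial manganese enzyme, differed mainly by line. It was 172, 173, 177, 124 and 94.8 CPM on days 0, 3, 5, 7 and 14 in WT#1-4. The same days gave 60.1, 50.2, 47.6, 46 and 31.1 CPM in WT#20D-17. Nox4-/- #5-8 had 275, 220.0, 200.3, 211 and 236 CPM and Nox4-/- #5-23 had 237, 207, 205, 197 and 173 CPM. Every WT#20D-17 library was below every other library, and WT#1-4 was below every library of #5-8 and overlapped with #5-23 through its day 14 library. The Nox4-/- lines were higher than WT#20D-17 by 2.20 ± 0.17 on the log2 scale (FDR of 4e-27), and the difference from WT#1-4, 0.54 ± 0.16, missed the threshold (FDR of 0.043). Sod1, the cytosolic copper and zinc enzyme, was 343 to 554 CPM in WT#1-4, 257 to 339 in WT#20D-17, 444 to 777 in Nox4-/- #5-8 and 399 to 461 in Nox4-/- #5-23, and passed against WT#20D-17 only (FDR of 0.0014).

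Sod3, the secreted dismutase of the matrix, was scarce everywhere. It had 2 to 8 counts per library in WT#1-4 and 1 to 24 in WT#20D-17, and 0 in all 10 Nox4-/- libraries. Against the floor of 3 counts per library, the mean in WT#1-4, 0.188 CPM, was at least 1.5-fold higher and that in WT#20D-17, 0.477 CPM, at least 3.82-fold higher. Both comparisons passed (FDR of 9.3e-09 and 2.6e-09), on counts of this size. Sod3 rests on few molecules even in the wild-type lines. It lies on chromosome 5 from 52363791 to 52371418.

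Gpx7, an endoplasmic reticulum peroxidase that feeds protein folding, was detected in the wild-type lines and was under the floor in both Nox4-/- lines. In WT#1-4 it was 2.13, 5.16, 3.92, 4.55 and 1.83 CPM on days 0, 3, 5, 7 and 14, from 37 to 130 counts. Values of 13, 9.39, 5.84, 7.06 and 5.09 CPM were found in WT#20D-17, from 97 to 316 counts. In each Nox4-/- line it had 1 count on day 3 and 0 counts on every other day. All wild-type libraries were above all Nox4-/- libraries. Against the floor of 3 counts the means were at least 28.2-fold higher in WT#1-4 and at least 64.6-fold higher in WT#20D-17 (FDR of 1.4e-35 and 3.6e-49). Its day 0 level in WT#20D-17, 13 CPM, stood beside a fibroblast marker sum of 33.9, and its day 14 level, 5.09 CPM, beside a sum of 3290.2. Of the 8 fibroblast markers, 6 were lower in the Nox4-/- lines against each wild-type line. Over all genes, 3.97% were lower against WT#1-4 and 16% against WT#20D-17. The 6 were not all the same, since Thy1 passed only against WT#1-4 and Lum only against WT#20D-17. The part of fibroblasts in the difference of Gpx7 was not tested. Gpx7 lies on the minus strand of chromosome 4 from 108400390 to 108406961.

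Gpx8, the other peroxidase of the endoplasmic reticulum, did not share this pattern. It was 0.496 to 1.23 CPM in WT#1-4, 0.510 to 1.43 in Nox4-/- #5-8 and 0.219 to 1.06 in Nox4-/- #5-23, a difference of -0.06 ± 0.40 on the log2 scale (FDR of 1.00). WT#20D-17 had 7.42, 10.4, 11.9, 17.5 and 21.3 CPM, above every library of the other lines. Prdx4, the peroxiredoxin of the same compartment, was 58.1, 92.9, 98.4, 114 and 133 CPM in WT#20D-17 and 32.3 to 54.5 CPM in WT#1-4. In the Nox4-/- lines it was 43.4 to 69.3 CPM (#5-8) and 21.5 to 56.9 CPM (#5-23), and the highest #5-8 values were above day 0 of WT#20D-17. Both genes were higher in WT#20D-17 than in WT#1-4 (FDR of 1.2e-14 and 0.00039). Both had their highest values on day 14 of WT#20D-17. That library had the highest sum of parietal endoderm markers, 73087, and also of fibroblast markers, 3290.2. The part of either type of cell was not tested.

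Gpx3, the secreted plasma peroxidase, was called in all 4 comparisons of lines. It was 5.28, 4.61, 5.41, 12.4 and 15.7 CPM in WT#1-4. It was 40.3, 80.1, 164, 252 and 269 CPM in WT#20D-17. In Nox4-/- #5-8 it was 3.03, 2.39, 3.59, 5.35 and 6.03 CPM, and in Nox4-/- #5-23 1.08, 1.01, 1.02, 1.91 and 0.875 CPM. WT#20D-17 was above all other libraries, and the Nox4-/- lines did not overlap with each other. The Nox4-/- lines were lower than WT#1-4, with a log2 fold change of -1.72 ± 0.46 (FDR of 0.0061), and lower than WT#20D-17, with -5.94 ± 0.50 (FDR of 3.2e-28), and #5-23 was lower than #5-8, with -1.79 ± 0.37 (FDR of 0.00085, with 0 calls in that comparison without day 5, where 0.803% of all genes were called). The call against WT#1-4 was lost in 7 of 15 alternatives, among them each that left out a day, and the log2 fold change was -2.84 without #5-8, -1.09 without #5-23 and -5.01 with both wild-type lines pooled. The difference between the Nox4-/- lines was as large as the difference from WT#1-4 within these errors. Between the wild-type lines the log2 difference was 4.19 ± 0.55, higher in WT#20D-17 (FDR of 3.2e-11).

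None of the other peroxide enzymes passed against WT#1-4. Cat, which splits peroxide without electrons from glutathione or thioredoxin, differed from WT#1-4 by 0.05 ± 0.22 and from WT#20D-17 by 1.01 ± 0.24 (FDR of 0.00072). Gpx1, the general cytosolic peroxidase, and Gpx4 passed in no comparison of lines. Gpx2, an epithelial peroxidase, was at most 4.52 CPM and was lower in the Nox4-/- lines than in WT#20D-17 (FDR of 0.00063). Of 7 peroxiredoxin genes with sulfiredoxin, none passed against WT#1-4. Prdx2 came nearest, at 282 to 384 CPM in WT#1-4 and 453 to 827 and 387 to 498 CPM in Nox4-/- #5-8 and #5-23, higher by 0.56 ± 0.17 (FDR of 0.037), and it passed against WT#20D-17, with 186 to 372 CPM there (0.80 ± 0.19, FDR of 0.00078). Prdx3 was 72.8 to 95.3 CPM in WT#1-4, 35.3 to 46 in WT#20D-17, 82.9 to 114 in Nox4-/- #5-8 and 71.6 to 88.8 in Nox4-/- #5-23, and was higher in the Nox4-/- lines than in WT#20D-17 (1.08 ± 0.14, FDR of 2.2e-09). Srxn1, which repairs overoxidized peroxiredoxins, was 8.70 to 19.7 CPM in WT#1-4, 9.90 to 29.1 in WT#20D-17, 3.27 to 14.4 in Nox4-/- #5-8 and 2.94 to 21.1 in Nox4-/- #5-23, without passing in any comparison of lines.

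In the glutathione system, Gsta4, the transferase that detoxifies the lipid aldehyde 4-hydroxynonenal, was the 1 gene called higher in the Nox4-/- lines against both WT#1-4 and WT#20D-17. It was 54.5, 102, 87.9, 36 and 23.5 CPM in WT#1-4 and 197, 80.3, 23.8, 30.0 and 30.5 CPM in WT#20D-17. Levels of 89.9, 134, 163, 196 and 413 CPM were found in Nox4-/- #5-8. In Nox4-/- #5-23 it was 77.4, 214, 332, 349 and 365 CPM. On day 0 the wild-type lines lay on both sides of the Nox4-/- lines, and on days 3, 5, 7 and 14 every Nox4-/- value was above every wild-type value of that day. The pooled difference was 1.94 ± 0.43 against WT#1-4 (FDR of 0.00052) and 1.69 ± 0.51 against WT#20D-17 (FDR of 0.0062). Slc7a11, the cystine importer that limits glutathione synthesis, was 8.24, 27.8, 42.2, 10.0 and 1.49 CPM in WT#1-4 and 2.57 to 9.82 CPM in WT#20D-17. The range was 23.5 to 52.6 CPM in Nox4-/- #5-8 and 46.4 to 80.0 CPM in Nox4-/- #5-23. Its day 5 value in WT#1-4 lay within the range of the Nox4-/- lines, and the difference of 1.38 ± 0.49 missed the threshold there (FDR of 0.078) and passed against WT#20D-17 (2.82 ± 0.35, FDR of 8.8e-13). RSEM divided reads of Slc7a11 among genes, since its counts held decimals in every library.

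Gsr, Gss and Gclm, of the enzymes that make and recycle glutathione, were lower in WT#20D-17 than in WT#1-4 and the Nox4-/- lines, and Gclc was not called. Gsr, glutathione reductase, was 71.7, 55.2, 35.8, 36.8 and 13.4 CPM there and 196, 173, 171, 165 and 97.3 CPM in WT#1-4. The Nox4-/- lines held 113 to 215 and 89.1 to 259.6 CPM, a difference from WT#1-4 of -0.02 ± 0.24 and from WT#20D-17 of 1.90 ± 0.34 (FDR of 8.9e-07). Gss, glutathione synthetase, was 13 to 20.4 CPM in WT#20D-17 and at least 35.7 CPM in the other lines. Gclm, the modifier subunit of the limiting ligase, and G6pdx, which supplies NADPH, were lower in WT#20D-17 than in the Nox4-/- lines (FDR of 0.00079 and 3.6e-05), while G6pdx did not pass between the wild-type lines (FDR of 0.072). Gclc, the catalytic subunit, passed against neither (FDR of 0.86 and 0.85), and its highest library was day 0 of WT#20D-17, at 83.4 CPM. Glrx, a glutaredoxin that strips glutathione from proteins, went the other way, at 19.2 to 36.2 CPM in WT#20D-17 and 8.78 to 12.6 CPM in WT#1-4. Gstp1 was 53.4 ± 18 CPM (mean and SD over 5 days) in WT#20D-17 against 249.6 ± 38.5 in WT#1-4, 233 ± 43 in Nox4-/- #5-8 and 191 ± 17.6 in Nox4-/- #5-23, although its reads too were divided among genes. Of the thioredoxin system only Txnrd3 passed between lines, with 3.99 to 6.97 CPM in WT#20D-17 and 16.1 to 31.9 CPM in WT#1-4 (FDR of 1.3e-08).

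Nfe2l2 and Keap1 were both lower in WT#20D-17 than in WT#1-4. Nfe2l2 was 103, 111, 117, 130.4 and 187 CPM in WT#1-4 and 62.8 to 68.5 CPM in WT#20D-17. Ranges were 58.3 to 99.1 CPM in Nox4-/- #5-8 and 89.2 to 143 CPM in Nox4-/- #5-23, so that #5-8 overlapped with WT#20D-17 and #5-23 with WT#1-4. Its difference between the wild-type lines had an FDR of 0.00025. Keap1 was 22.8 to 47.7 CPM in WT#20D-17 and 69.8 to 85.8 CPM in WT#1-4. Neither passed against WT#1-4 (FDR of 0.19 and 1.00), and Keap1 was lower in WT#20D-17 than in the Nox4-/- lines (FDR of 4.7e-08).

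Nqo1, a quinone reductase and a classical NRF2 target, put the Nox4-/- lines between the wild-type lines. In WT#1-4 it was 13.6, 53.9, 54.4, 65.5 and 78.9 CPM. WT#20D-17 had 5.45, 3.79, 2.48, 4.26 and 1.21 CPM. Nox4-/- #5-8 had 18.2, 27.7, 23.9, 27.5 and 30.4 CPM and Nox4-/- #5-23 had 13.3, 20.4, 24.5, 27.6 and 34.1 CPM. On day 0 WT#1-4 was within the range of the Nox4-/- lines, and from day 3 on it was above both. The Nox4-/- lines differed by -1.11 ± 0.28 from WT#1-4 (FDR of 0.0039) and by 2.84 ± 0.32 from WT#20D-17 (FDR of 1e-14), so the sign turned with the wild-type line chosen, while with the line as the unit the difference was -0.15 ± 1.26 (FDR of 0.97). The call against WT#1-4 was lost in 8 of 15 alternatives, and with both wild-type lines pooled the log2 fold change was -0.20.

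Hmox1, the inducible heme oxygenase, reached its highest levels in WT#1-4. It was 112, 252, 195, 552 and 1115 CPM there. WT#20D-17 had 71, 121, 99.8, 108 and 170.4 CPM. In Nox4-/- #5-8 it was 38.2, 80.2, 163, 129 and 125 CPM, and in Nox4-/- #5-23 57.1, 90.6, 116, 96.4 and 274 CPM. On days 7 and 14 WT#1-4 was above every library of the other lines. The difference of the Nox4-/- lines was -1.93 ± 0.44 from WT#1-4 (FDR of 0.00044) and 0.04 ± 0.34 from WT#20D-17 (FDR of 1.00). Hmox2, the constitutive form, was 37.9 to 56.9, 37.7 to 43.5, 29.1 to 65.2 and 28 to 49.6 CPM in WT#1-4, WT#20D-17, Nox4-/- #5-8 and Nox4-/- #5-23. Blvrb, which reduces biliverdin made from heme, was 21 to 39.7 CPM in WT#20D-17, above all Nox4-/- libraries, and was lower in the Nox4-/- lines than there (FDR of 6.6e-12), while its difference from WT#1-4 missed the threshold (FDR of 0.053).

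The metallothioneins reached their highest levels in WT#20D-17. Mt2 was 180.2, 205, 52.1, 118 and 35 CPM there and 4.60, 7.11, 10.9, 9.25 and 52.6 CPM in WT#1-4. It was 7.63, 4.66, 9.60, 12.5 and 20.5 CPM in Nox4-/- #5-8 and 8.21, 5.54, 11.9, 13.8 and 29.3 CPM in Nox4-/- #5-23. Mt1 was 122, 167, 49.8, 99.7 and 40.0 CPM in WT#20D-17 and 27.8, 15.6, 13.2, 9.44 and 55.7 CPM in WT#1-4. In Nox4-/- #5-8 Mt1 was 5.12 to 24.7 CPM and in Nox4-/- #5-23 9.74 to 23.5 CPM. WT#20D-17 was at its highest on day 3 for both genes and was below WT#1-4 on day 14 for both. The Nox4-/- lines were lower than WT#20D-17, with a log2 fold change of -2.74 ± 0.33 for Mt1 and -3.25 ± 0.41 for Mt2 (FDR of 3.7e-14 and 3.7e-13), and neither passed against WT#1-4 (FDR of 0.28 and 0.87). Over the 20 libraries Spearman's rho between Mt1 and Mt2 was 0.780, a description, since libraries of a line share their origin. Mt2 held 6 matches of the loose metal pattern and Mt1 held 3 in the windows shown above. Mtf1 itself was 16.9 to 20.1 CPM in WT#20D-17 and 16.2 to 22.1 CPM in WT#1-4.

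The remaining members are given from the lowest to the highest library, save Prdx6, given as mean and SD over 5 days. Prdx6, which also acts on lipid peroxides, was 241 ± 28.9 CPM in WT#1-4, 217 ± 87.5 in WT#20D-17, 229 ± 24.8 in Nox4-/- #5-8 and 184 ± 18.7 in Nox4-/- #5-23. Txn2 and Txnrd2, the mitochondrial thioredoxin and its reductase, passed in no comparison of lines or days. Txn2 was 98.3 to 144 CPM in WT#1-4, 84.9 to 112 in WT#20D-17, 129 to 172 in Nox4-/- #5-8 and 92.6 to 154 in Nox4-/- #5-23. Txnrd2 was 6.20 to 22.9 CPM in WT#1-4, 6.25 to 10.2 in WT#20D-17, 12 to 17.2 in Nox4-/- #5-8 and 9.44 to 19.2 in Nox4-/- #5-23. Glrx2, the mitochondrial glutaredoxin, was 22.1 to 26.4 CPM in WT#1-4, 22.1 to 31.5 in WT#20D-17, 24.4 to 34.7 in Nox4-/- #5-8 and 21.8 to 25.6 in Nox4-/- #5-23, with all 4 lines overlapping. Gstm1 and Gstt1 are cytosolic transferases that conjugate glutathione to reactive compounds. Gstm1 was 20.4 to 88.9 CPM in WT#1-4, 33.5 to 54.1 in WT#20D-17, 28.9 to 56.2 in Nox4-/- #5-8 and 21.7 to 48.7 in Nox4-/- #5-23. Gstt1 spread more widely, at 1.63 to 11.9 CPM in WT#1-4, 2.20 to 10.7 in WT#20D-17, 0.240 to 3.29 in Nox4-/- #5-8 and 0.223 to 5.51 in Nox4-/- #5-23, and differed from WT#1-4 by -1.28 ± 0.60 on the log2 scale without passing (FDR of 0.24). Sesn1, a sestrin known as a p53 target, was 43.6 to 68.2 CPM in WT#1-4, 21.5 to 29.8 in WT#20D-17, 29.7 to 57.9 in Nox4-/- #5-8 and 22.2 to 55.6 in Nox4-/- #5-23, and was lower in WT#20D-17 than in WT#1-4 (FDR of 4.3e-05).

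**Figure D3:**
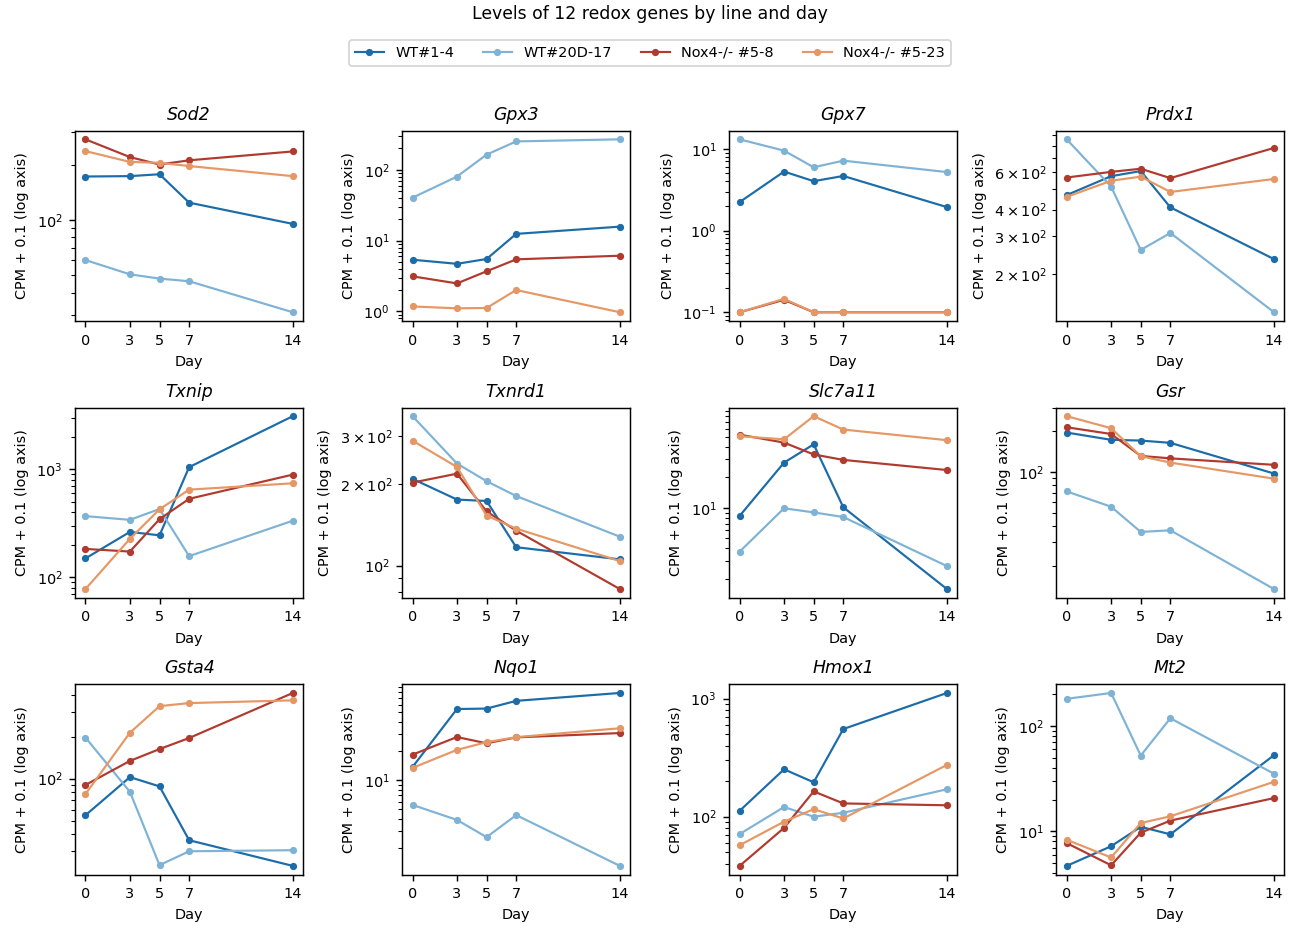
CPM plus 0.1 on a log axis against day for 12 genes, with 1 point per library and 1 line colour per iPSC line. Gpx7 sits at the bottom of its panel in both Nox4-/- lines, Txnrd1 and Gsr slope down in all 4 lines, and Txnip and Hmox1 end highest in WT#1-4, at 3104 and 1115 CPM.

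Across days, with the line as a block, 11 of the 45 genes changed in edgeR's quasi-likelihood test, where 16.1% of 19240 genes did. From day 0 to day 14, 16 genes changed (26.6% of all genes). Higher on day 14 were 10 (14.1% of all genes), namely Cat, Gpx1, Gpx3, Gpx4, Prdx5, Txnip, Gss, Nfe2l2, Hmox1 and Hmox2. Lower were 6 (12.5% of all genes), namely Sod2, Txnrd1, Txnrd3, Gclc, Gsr and Sesn2. The median log2 change was 0.38 over the set and 0.07 over all genes. By role, 4 of 7 genes of the catalase and glutathione peroxidase group were higher (median log2 change of 1.00) and 1 of 7 peroxiredoxins with sulfiredoxin (median of -0.11). In the thioredoxin system 1 of 6 was higher and 2 lower, and of 8 genes of glutathione supply and glutaredoxins 1 was higher and 2 lower. Without the block the fit held a mean per genotype and day, so that more than the block changed. Its calls from day 0 to day 14 were 3, Gpx1, Txnrd1 and Gclc, where 8.28% of all genes were called. Leaving out a line gave 7 without WT#1-4 (15.6% of all genes), 24 without WT#20D-17 (31.1%), 11 without Nox4-/- #5-8 (16.6%) and 9 without Nox4-/- #5-23 (12.3%). Across all days the calls were 0 without the block (1.72% of all genes), 4 without WT#1-4 (6.86%), 18 without WT#20D-17 (21.2%), 1 without Nox4-/- #5-8 (5.02%) and 2 without Nox4-/- #5-23 (3.15%).

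Txnrd1, the cytosolic thioredoxin reductase, kept its call from day 0 to day 14 under the 9 alternatives run for that contrast, as did Gclc, though both lost the call across all days without the block. It was 209, 175, 173, 117 and 105 CPM in WT#1-4 and 356, 238, 205, 180.3 and 128 CPM in WT#20D-17. Levels of 202, 218, 158, 134 and 81.8 CPM were found in Nox4-/- #5-8 and of 288, 231, 153, 137 and 104 CPM in Nox4-/- #5-23. In every line the day 14 library was the lowest of the 5, and the change was -1.28 ± 0.15 on the log2 scale (FDR of 7.3e-06). Gsr and Gclc were lower on day 14, with log2 changes of -1.40 ± 0.22 and -1.46 ± 0.25 (FDR of 0.0001 and 0.00028). Sesn2, a sestrin induced by amino acid and oxidative stress, was 65.8 CPM on day 0 and 31 on day 14 in WT#1-4, 139 and 81.6 in WT#20D-17, 82.2 and 39 in Nox4-/- #5-8 and 136 and 35.9 in Nox4-/- #5-23 (FDR of 0.00021).

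Txnip, which binds and blocks thioredoxin and answers to glucose, had the largest fitted rise among the genes called, 2.54 ± 0.67 (FDR of 0.0061), but not in every line. It was 149, 262, 244, 1046 and 3104 CPM in WT#1-4. It was 367, 339, 427, 156 and 333 CPM in WT#20D-17, with day 14 below day 0. In Nox4-/- #5-8 it was 182, 172, 345, 532 and 891 CPM, and in Nox4-/- #5-23 77.3, 226, 425, 647 and 740.2 CPM. Hmox1 was higher on day 14 by 2.23 ± 0.38 (FDR of 0.00025) and its day 14 value was above its day 0 value in all 4 lines. Gpx1 was higher by 1.40 ± 0.26, Prdx5, a peroxiredoxin of mitochondria and peroxisomes, by 1.28 ± 0.23 and Cat by 0.94 ± 0.18 (FDR of 0.00044, 0.00038 and 0.00061), and Gss also passed (FDR of 0.00028).

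As a count of directions, 6 genes were higher on day 14 than on day 0 in all 4 lines (Cat, Gpx1, Gpx4, Prdx5, Gss and Hmox1), where 18.9% of 16517 genes whose mean count reached 10 were. Lower in all 4 lines were 8 genes (Sod2, Txnrd1, Txnrd3, Slc7a11, Gclc, Gsr, G6pdx and Sesn2), where 20.3% of those genes were. Of the 45 genes 44 reached that mean, all but Sod3. The genotypes went opposite ways, both lines of each alike, in 4 genes, Prdx1, Prdx2, Txn1 and Gsta4, where 7.4% of those genes did. For Txn1 the log2 change in WT#1-4 was only -0.07. From day 0 to day 3, 0 of the 45 genes passed in edgeR's quasi-likelihood test (0.12% of 19240 genes), and DESeq2 called 0 (1.45% of all genes). At an unadjusted p under 0.05 in edgeR's test there were 3 genes of the set and 2124 of all genes.

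**Figure D4:**
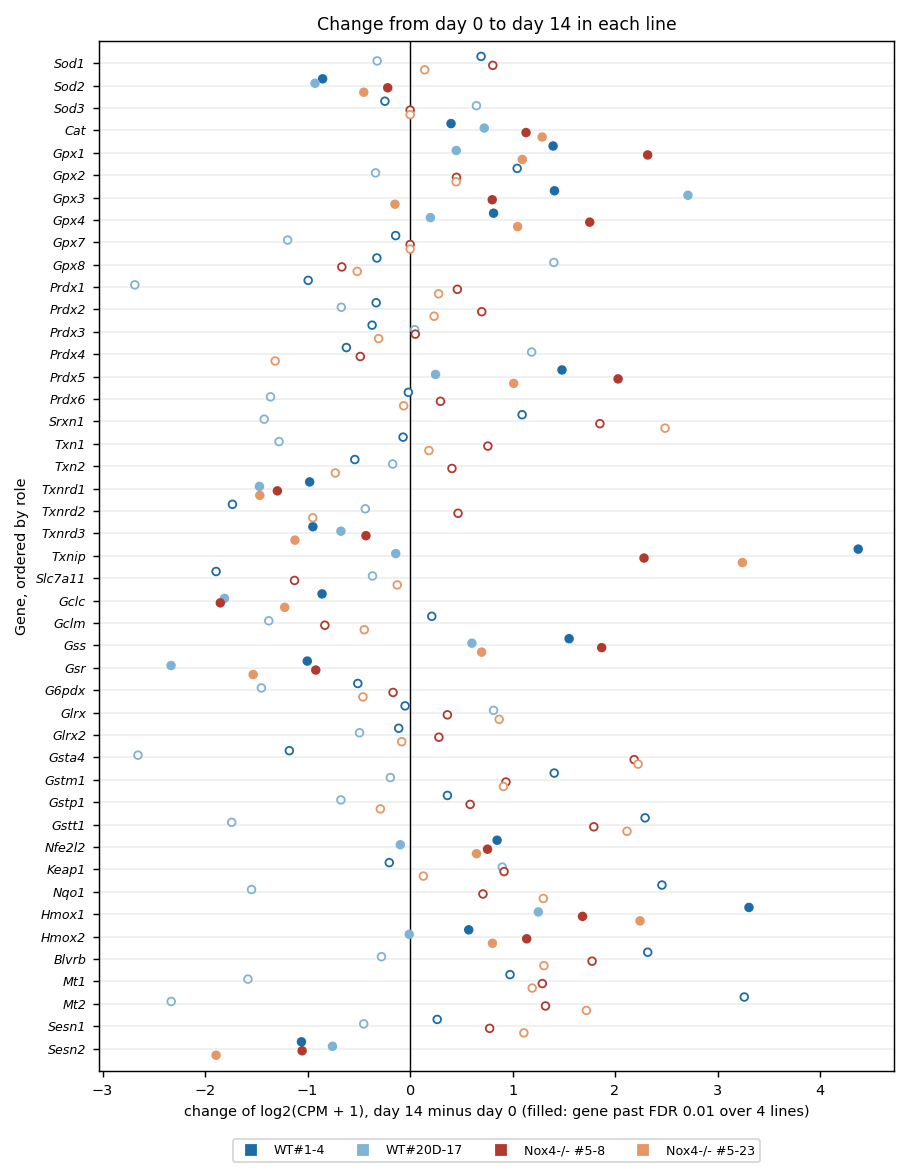
Each point is the change of log2(CPM + 1) from day 0 to day 14 in 1 line, for each of the 45 genes, with filled points where the gene passed an FDR of 0.01 over the 4 lines. Gsta4 and Prdx1 lie to the left of 0 in both wild-type lines and to the right in both Nox4-/- lines.

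The difference between genotypes in the course over days was tested directly with edgeR's quasi-likelihood test. None of the 45 genes passed, and 0.0104% of 19240 genes passed. At an unadjusted p under 0.05 in that test there were 6 genes of the set and 1410 of all genes. DESeq2 called 1, Gsta4, and 1.3% of all genes. Without WT#1-4 the count was 6, Prdx1, Srxn1, Gsta4, Gstt1, Mt1 and Mt2, where 3.38% of all genes passed. Prdx1 was 468, 574, 607, 410.1 and 234 CPM in WT#1-4 and 855, 513, 259, 311 and 132 CPM in WT#20D-17. Nox4-/- #5-8 had 566, 602, 622, 562 and 779 CPM and Nox4-/- #5-23 had 459, 547, 572, 484 and 557 CPM. The wild-type lines ended below every Nox4-/- library, but the interaction did not pass (FDR of 0.56, and 0.43 for Gsta4).

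Further genes of the same pathways were read from lists made by function. Of 10 partners and regulators of NRF2, 4 were higher on day 14 and 0 lower, where 14.1% and 12.5% of all genes were. These were Maff and Mafk, small MAF proteins that bind DNA with NRF2, Sqstm1, which ties up KEAP1, and Nfe2l1, a relative of NRF2. On days 0 and 14, Maff was 16 and 207 CPM in WT#1-4, 9.34 and 54.6 CPM in WT#20D-17, 9.54 and 99.5 CPM in Nox4-/- #5-8, and 9.96 and 64.1 CPM in Nox4-/- #5-23 (log2 change of 3.20, FDR of 6.7e-06). None of the 10 passed against WT#1-4, and 1, the repressor Bach1, was lower in the Nox4-/- lines than in WT#20D-17. Of 23 further NRF2 targets, 1 was higher and 1 lower in the Nox4-/- lines against WT#1-4, where 1.65% and 3.97% of all genes were, and 6 were higher and 7 lower against WT#20D-17, where 9.83% and 16% of all genes were. Ephx1, an epoxide hydrolase, was low in WT#20D-17, as Nqo1 was, at 6.39 to 20.2 CPM against 173 to 652 in WT#1-4. From day 0 to day 14, 3 of the 23 were higher and 2 lower.

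Of 6 genes listed as ATF4 targets, Atf4 among them, 1 was higher and 1 lower in the Nox4-/- lines against WT#1-4. Over all genes, 1.65% were higher and 3.97% lower there. Against WT#20D-17, 1 of the 6 was higher and 3 lower, where 9.83% and 16% of all genes were. Cth, which makes cysteine from cystathionine, was 60.5 to 209.6 CPM in WT#1-4 and 243 to 304 and 187 to 289 CPM in Nox4-/- #5-8 and #5-23 (log2 fold change of 0.89, FDR of 0.0038). Atf3, a stress-induced factor, was the one lower against WT#1-4. Of 8 p53 targets only Cdkn1a passed against WT#1-4, lower with a log2 fold change of -0.996, where 3.97% of all genes were lower. Against WT#20D-17, 4 of the 8 were higher and 0 lower, where 9.83% and 16% of all genes were. These 4 were Cdkn1a, higher by 0.98, and Ccng1, Bax and Phlda3. Of 13 genes of selenoprotein synthesis and other selenoproteins, 5 were higher and 3 lower on day 14, against the same shares of 14.1% and 12.5% of all genes, and none passed against WT#1-4. The 3 lower ones, Sephs2, Secisbp2 and Eefsec, serve to make or insert selenocysteine, on which thioredoxin reductases and several glutathione peroxidases depend. On days 0 and 14, Sephs2 was 103 and 11.6 CPM in WT#1-4, 118 and 58.2 CPM in WT#20D-17, 97 and 28.7 CPM in Nox4-/- #5-8, and 103 and 19.8 CPM in Nox4-/- #5-23. Neither of the 2 metal response genes, Mtf1 and Slc30a1, passed in a comparison of lines. Of 11 other thiol and peroxide repair genes, 1 was higher (Msrb3) and 1 lower (Msra) in the Nox4-/- lines against WT#1-4 (1.65% and 3.97% of all genes). Both are reductases of oxidized methionine. Against WT#20D-17, 3 of the 11 were higher and 1 lower (9.83% and 16% of all genes). Between day 0 and day 14, 0 of the 11 passed (26.6% of all genes).

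Genes whose pattern over the 20 libraries was most like that of 4 members were sought among 16517 genes by Spearman's rho, as a description. For Hmox1 these were Gm14137, Dnase1l3 and Ndrg1, with rho of 0.938, 0.908 and 0.893. Nqo1 was most like Cpne4 (0.953), Tnfsfm13 (0.937) and Mapk13 (0.926). For Mt1 the nearest were Spry1 (0.895), Mapk12 (0.886) and Kcnip3 (0.881), and Mt2 was not among them. Slc7a11 was most like Anapc4 (0.94), Gm9597 (0.936) and Ccdc177 (0.930). The 5 libraries of a line share their origin.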

How the data were processed

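Expected counts per gene were deposited for the 20 libraries. Per the labels and the study's methods, the authors prepared stranded poly(A) libraries, trimmed the reads, mapped them with STAR 2.6.0c to mm10 (GRCm38) and made the expected counts, which are not normalized, with RSEM 1.3.1, which divides reads shared by similar genes. The strand setting is not given in the sources used here. Counts held decimals in every library for 10 of the 45 genes, so their levels are less certain.

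Expected counts were rounded to whole numbers. Comparisons of lines used edgeR 4.0.16 (R 4.3.3) with TMM factors and the exact test, with days pooled as in the study's methods, on 33860 genes with a nonzero value, and with Benjamini-Hochberg adjustment and an FDR of 0.01. Days and genotype by day used edgeR's quasi-likelihood test with upper-quartile factors, filterByExpr and the line as a block, on 19240 genes. The line as the unit used sums over days. DESeq2 1.42.0 was an alternative. CPM used TMM factors over all libraries, and changes within a line used log2(CPM + 1). Fits were tested on simulated data drawn independently for each library, without line effects. That test does not cover the use of days of a line as replicates. The pairing of days across lines comes from the labels, which give each line the same 5 days.

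Intervals and floors cover counting error only. All 45 genes were kept, and other genes were named where they passed or as examples of a list. Genes of most similar pattern were the 3 with the highest Spearman's rho to Hmox1, Nqo1, Mt1 and Slc7a11 among genes whose mean count reached 10. The 45 genes and the other lists were chosen with earlier results of these data known. Single libraries per line and day leave no replicate of a culture, so p-values measure the spread between days or lines.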

Additional observations from a re-analysis of the deposited data

Results flagged for a closer look

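The change of log2(CPM + 1) from day 0 to day 14 went down in both wild-type lines and up in both Nox4-/- lines for Prdx1, Prdx2, Txn1 and Gsta4. For Txn1 the fall in WT#1-4 was small, at -0.07 beside -1.28 in WT#20D-17, with 1 library per day. The mean change in the Nox4-/- lines minus that in the wild-type lines was 2.21 for Prdx1, 0.968 for Prdx2, 1.14 for Txn1 and 4.12 for Gsta4. With 2 lines per genotype, the direct test of genotype by day over all days (edgeR's quasi-likelihood test) did not pass for any of them, with FDR values of 0.56, 0.66, 0.69 and 0.43 in the same order. Changes that went opposite ways in this manner were found in 7.4% of 16517 genes.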

How the results depend on the processing

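Among the 6 genes called against WT#1-4 and the 16 called from day 0 to day 14, no log2 value changed direction under any alternative. The first group kept its calls in 70 gene-by-setting values and lost them in 19, and the second kept 105 and lost 39. Against WT#1-4, where 6 of the 45 genes were called, day as a replicate block gave 11 and pooling both wild-type lines gave 11. Leaving out 1 day or 1 Nox4-/- line gave 2 to 5, with the lowest without day 7. Against WT#20D-17, pooling both wild-type lines gave 11 in place of 25. Between the Nox4-/- lines the quasi-likelihood test without a block gave 0, the day block 2, and leaving out 1 day 0 to 2, in place of 1. With the line as the unit, where 0 were called, DESeq2 gave 3 and the exact test 2. The fit without the replicate block of line held a mean per genotype and day, so that more than the block changed. In it, calls fell from 11 to 0 across days and from 16 to 3 from day 0 to day 14. Leaving out 1 line gave 1 to 18 across days and 7 to 24 from day 0 to day 14. Genotype by day, with 0 calls, gave 1 with DESeq2 and 0 to 6 with 1 line left out. The cause of these shifts was not tested. Shares of all genes are given above for a part of these settings only. For the rest, the pooled wild-type lines among them, a count says nothing about this set in particular. At this depth, genes near the floor of 3 counts such as Sod3 are limited by counting error.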
